A study of Mus musculus with 192 samples.

Results

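The 9 genes described here, Mbp, Mobp, Cnp, Mal, Mag, Cldn11, Mog, Myrf and Opalin, are expressed by oligodendrocytes, the myelin-forming cells of the central nervous system, and were taken by name out of 54752 genes in the deposited RNA-sequence table. They were followed in brain cerebrum (Cbr) of mice of the JAXA space mouse project, with 8 other tissues for reference. The mice were male, on a C57BL/6 background by the labels (C57BL/6J in the study's methods), and labelled 12 weeks of age. The study's methods give that age for mice ready for transport to space, so flight mice were older at dissection. The ground experiment was run to simulate the space experiment, and the methods give no age at dissection for ground mice. Nfe2l2 is the gene for the stress-response transcription factor Nrf2. The mice were wild type (WT) or carried a germline disruption of Nfe2l2 in every cell of the body (Nrf2-KO). They were housed 1 per cage on the International Space Station and dissected after return to Earth (FL), or kept in the same type of cage on the ground (GC), which gave the groups GC_WT, FL_WT, GC_KO and FL_KO. Cerebrum was measured in 6 GC_WT, 6 FL_WT, 6 GC_KO and 5 FL_KO mice. The Nrf2-KO flight mouse FL04, which developed intestinal hemorrhage, was left out. FL and GC animals were different mice housed at different places and times, so flight and the rest of the handling of a group cannot be told apart.

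Myelin is the stacked membrane that oligodendrocytes wrap around axons, and it speeds the conduction of nerve impulses. Myrf is a transcription factor that oligodendrocytes need to switch on the myelin genes, together with Sox10. Mbp and Mobp encode basic proteins that hold the cytoplasmic faces of the membrane together, Cnp encodes an enzyme of non-compact myelin, Mag and Mog encode surface proteins on the inner and outer side of the sheath, Cldn11 encodes the claudin of its tight junctions, and Mal encodes a membrane protein of lipid rafts. Opalin encodes a membrane glycoprotein of mature oligodendrocytes. The mRNA of Mbp is carried into the processes of the cell and translated at the growing sheath, and the myelin genes are known to be highly expressed in adult brain.

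The stretches of DNA upstream of 3 of these genes are shown because Mag and Cnp had among the most similar values across mice, while Mobp had the lowest unadjusted p-value of the 9 genes in the comparison of Nrf2-KO with WT on the ground. RefSeq entries were found for 7 of the 9 genes (9 entries in all, 3 of them for Mag), and none was found for Mbp and Myrf. The 250 bases upstream of each start were searched on both strands for ACAAAG, the core recognised by SOX proteins such as Sox10, for CTGGCAC, a form of the Myrf recognition sequence, and for TGACNNNGC, the core of the antioxidant response element that Nrf2 binds with small Maf proteins. Of 32851 upstream windows of 27025 genes, 16.5% held the SOX core, 4.19% the Myrf form and 10.2% the antioxidant response element core. In the lines below, written 5′ to 3′ on the strand of the gene (GRCm38.p6), capitals mark the matches, and bases that already lie inside the annotated gene are left off. The Mag stretch is chr7:30914874-30915113 on the minus strand, the Cnp stretch is chr11:100574689-100574903 on the plus strand and the Mobp stretch is chr9:120149492-120149706 on the plus strand.
Mag: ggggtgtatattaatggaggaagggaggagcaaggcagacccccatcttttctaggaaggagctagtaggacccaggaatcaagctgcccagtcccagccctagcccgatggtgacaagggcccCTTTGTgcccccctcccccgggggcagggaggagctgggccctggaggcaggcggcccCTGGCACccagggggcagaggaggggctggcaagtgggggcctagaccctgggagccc
Cnp: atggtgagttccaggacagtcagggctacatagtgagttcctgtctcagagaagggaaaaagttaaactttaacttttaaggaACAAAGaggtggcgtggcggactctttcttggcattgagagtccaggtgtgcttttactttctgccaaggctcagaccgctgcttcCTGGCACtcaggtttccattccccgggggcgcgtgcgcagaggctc
Mobp: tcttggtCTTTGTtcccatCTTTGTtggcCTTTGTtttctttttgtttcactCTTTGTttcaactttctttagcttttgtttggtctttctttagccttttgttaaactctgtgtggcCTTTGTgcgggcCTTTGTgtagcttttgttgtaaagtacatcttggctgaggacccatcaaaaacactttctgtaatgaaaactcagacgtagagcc

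Mag has 3 RefSeq starts. The stretch printed belongs to the middle one and held a SOX core and, 68 bases upstream of that start, the Myrf form. The same matches lie closer to the start farthest upstream, with the Myrf form 9 bases before it, and the window of the remaining start held no match. Cnp held the SOX core, the Myrf form at 81 bases and, inside the annotated gene and therefore not printed, the antioxidant response element core at 31 bases. In Mobp the SOX core stood 6 times, between 243 and 120 bases upstream, each time on the opposite strand. Opalin held a SOX core and, 244 bases upstream, an antioxidant response element core. No match stood in the windows of Cldn11, Mal or Mog. A match only describes these letters, and binding was not measured.

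Cerebrum libraries held 13225287 to 14860536 counts, thymus libraries 8007523 to 10564704 and the libraries of the other 7 tissues 13110740 to 16308175. Nfe2l2 lay between 13.8 and 18.1 TPM (a length-corrected level, relative to all transcripts of the library) in 12 WT cerebra and between 3.72 and 6.39 TPM in 11 Nrf2-KO cerebra, without overlap. The cerebrum samples carried their neuron markers, with a summed level of 10 genes of 6559 to 7840 TPM, and the erythroid genes were the only ones that passed the test for flight in cerebrum. Of 16382 genes tested there by edgeR's quasi-likelihood test with Benjamini-Hochberg adjustment, 4 passed an adjusted p of 0.05 in FL_WT against GC_WT and all were lower in flight (Alas2, Hba-a2, Hbb-bs and Hbb-bt). The 1 gene that passed in FL_KO against GC_KO was Hba-a2.

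The 9 genes were abundant in cerebrum and spanned a wide range of levels. Mbp had the highest median, 3584 TPM over 23 mice, which was rank 18 of all genes in the table. Mobp followed at 601 TPM, Cnp at 246 (rank 549), Mal at 209 (rank 678), Mag at 179.2 (rank 814) and Cldn11 at 158.3 (rank 940). Mog at 58.99 TPM, Myrf at 34.3 TPM and Opalin at 12.8 TPM were lower. In this order the ranges over mice of Mbp (3089 to 4002 TPM), Mobp (453 to 735), Mog (44.99 to 68.98), Myrf (29.4 to 44.7) and Opalin (9.11 to 17.4) stood clear of their neighbours, whereas Cnp (203 to 281), Mal (170.5 to 237.8), Mag (145.3 to 199.9) and Cldn11 (127.4 to 180.8) overlapped. Together the 9 genes took 0.428 to 0.553% of all TPM in a cerebrum library.

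**Figure D1:**
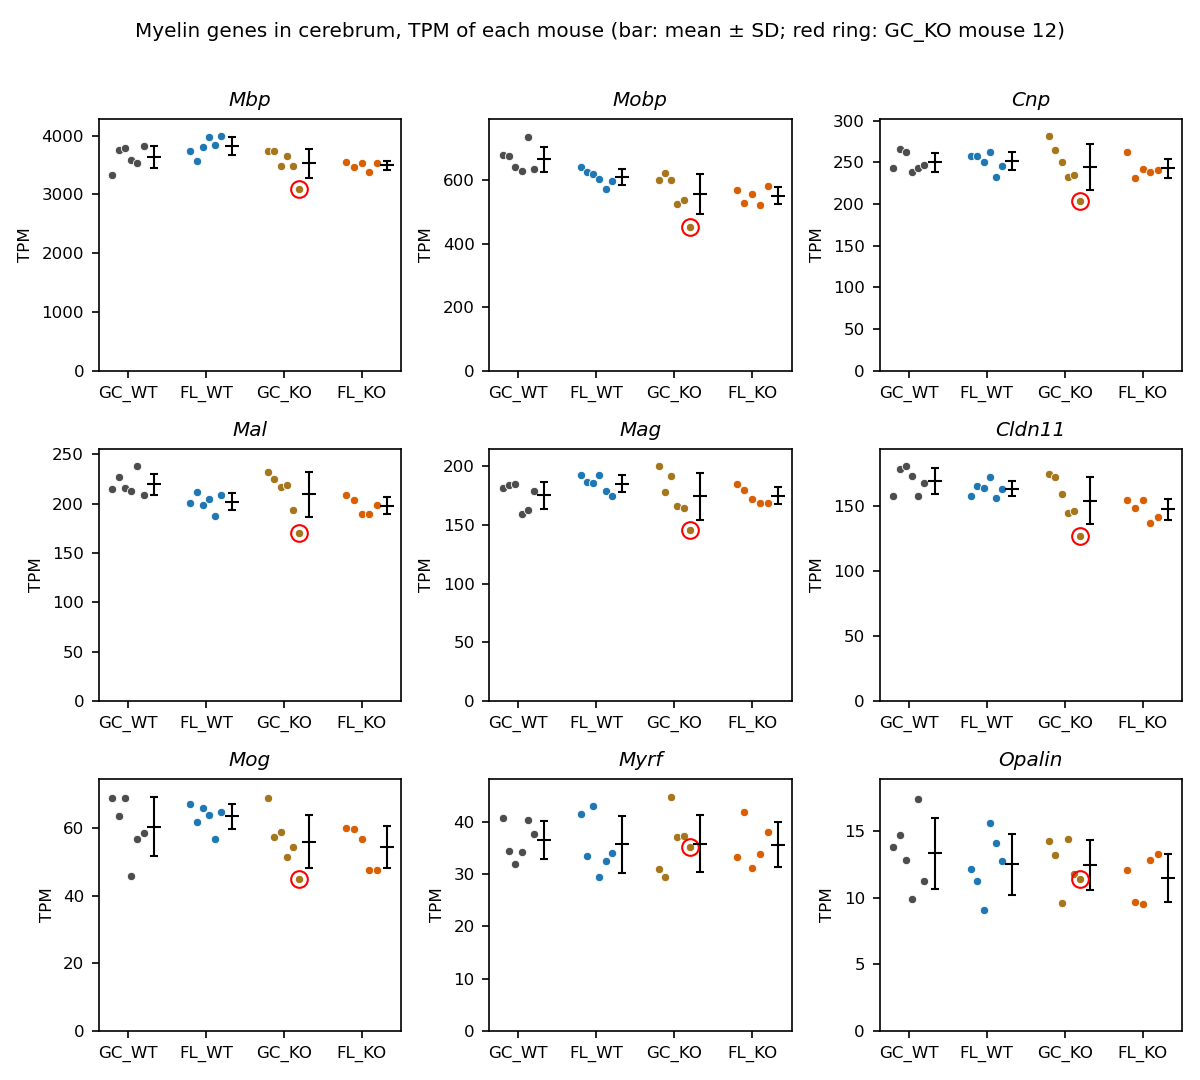
TPM (y axis, from 0) of each of the 9 myelin genes in cerebrum, 1 panel per gene and 1 point per mouse in GC_WT (n = 6), FL_WT (n = 6), GC_KO (n = 6) and FL_KO (n = 5), with the mean ± SD as a bar beside the points. The group means of a gene lie close together, and the ringed mouse, GC_KO mouse 12, is the lowest of all for 7 of the 9 genes.

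Space flight did not change any of the 9 genes in cerebrum past the threshold, in either genotype. Mbp, the main basic protein, ran from 3332 through a median of 3672 to 3819 TPM in GC_WT and from 3577 through 3820 to 4002 TPM in FL_WT. In GC_KO it ran from 3089 through 3567 to 3738 TPM, and the 5 FL_KO mice had 3560, 3463, 3537, 3380 and 3535 TPM. The flight and ground ranges overlapped in both genotypes, and FL_KO was the tightest group. The log2 fold change of Mbp (from counts, as all fold changes below) was 0.06 (95% interval -0.06 to 0.18) in WT and -0.01 (-0.13 to 0.11) in Nrf2-KO.

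Mobp, the second basic protein, ran from 628 through 659 to 735 TPM in GC_WT and from 574 through 613 to 642 TPM in FL_WT. The lower part of the GC_WT range overlapped the upper part of FL_WT. Its log2 fold change in WT was -0.16 (-0.32 to 0.0021, unadjusted p = 0.0529), and in Nrf2-KO -0.05 (-0.22 to 0.12).

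Mal had the lowest unadjusted p-value for flight. It ran from 209 through 215 to 238 TPM in GC_WT and from 187.5 through 203 to 212 TPM in FL_WT, with some overlap between 209 and 212 TPM. The log2 fold change was -0.13 (-0.26 to -0.01) with an unadjusted p of 0.042 and an adjusted p of 1 by edgeR's quasi-likelihood test with Benjamini-Hochberg adjustment, and in Nrf2-KO it was -0.08 (-0.21 to 0.05).

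Among the 6 others the log2 fold changes for flight in WT were 0.08 for Mag, 0.06 for Mog, -0.01 for Cnp, -0.02 for Myrf, -0.06 for Cldn11 and -0.10 for Opalin. In Nrf2-KO they were 0.02 for Mag, -0.01 for Mog, -0.01 for Cnp, 0.02 for Myrf, -0.06 for Cldn11 and -0.12 for Opalin. Opalin, the least abundant, had the widest intervals, -0.40 to 0.20 in WT and -0.44 to 0.19 in Nrf2-KO.

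By edgeR's test 0 of 9 genes passed in FL_WT against GC_WT, where 0.0244% of all genes passed, and 0 of 9 in FL_KO against GC_KO, where 0.0061% passed. DESeq2 and limma on log2(TPM + 1) also called 0 in both. At an unadjusted p under 0.05 there was 1 gene (Mal) in WT and 0 in Nrf2-KO, beside 3.35% and 5.52% of all genes. The TPM ranges of FL and GC overlapped for all 9 genes in both genotypes, and failed to overlap for 0.269% of all genes in WT and 0.342% in Nrf2-KO. The median log2 fold change of the 9 genes was -0.02 in WT and -0.01 in Nrf2-KO, where the median of all genes lay within 0.01 of 0. With so few genes passing the test at all, these counts have little room to differ from the background.

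The flight response did not differ between the genotypes past the threshold for any of the 9 genes. In the interaction term, (FL_KO - GC_KO) - (FL_WT - GC_WT), 0 of 9 genes passed in edgeR's test, as did 0% of all genes. At an unadjusted p under 0.05 there were 0 of the 9, beside 2.34% of all genes. DESeq2 and limma called 0. The term ran from -0.07 for Mbp (-0.24 to 0.10) to 0.11 for Mobp (-0.13 to 0.34).

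**Figure D2:**
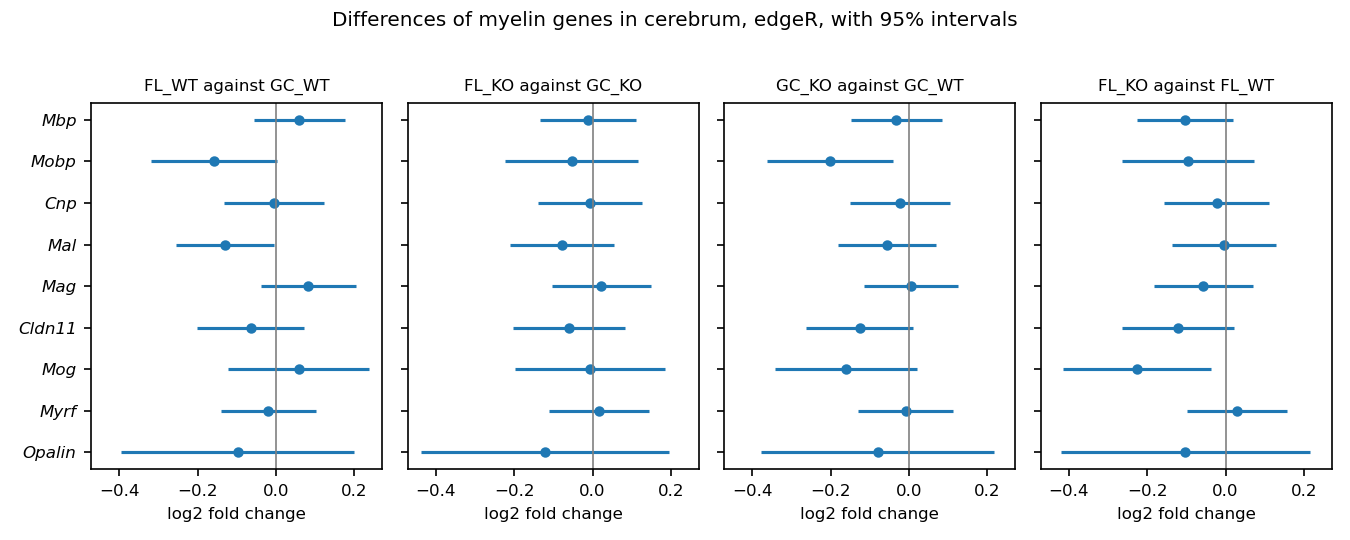
Log2 fold change (x axis) of each myelin gene (y axis) in cerebrum with its 95% interval from edgeR, 1 panel for each of 4 comparisons. Most intervals include 0; the 3 that do not, Mal in FL_WT against GC_WT (-0.13), Mobp in GC_KO against GC_WT (-0.20) and Mog in FL_KO against FL_WT (-0.23), are not adjusted for the number of genes.

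Between Nrf2-KO and WT cerebra none of the 9 genes passed edgeR's test, though most of their log2 fold changes were below 0. Mobp had the lowest unadjusted p-value on the ground. It ran from 628 through 659 to 735 TPM in GC_WT and from 453 through 569 to 622 TPM in GC_KO. In TPM every GC_KO mouse therefore lay below every GC_WT mouse. The counts of Mobp, not scaled for depth, overlapped, at 3811 to 4589 in GC_WT and 2939 to 4217 in GC_KO. The mean was 667 ± 39.9 TPM (SD, n = 6) in GC_WT and 556 ± 63.5 TPM (SD, n = 6) in GC_KO. The log2 fold change was -0.20 (-0.36 to -0.04), with an unadjusted p of 0.016 and an adjusted p of 0.359 by edgeR's quasi-likelihood test with Benjamini-Hochberg adjustment. On log2(TPM + 1) limma gave -0.27 with an adjusted p of 0.0493, the only call of any of the 9 genes in cerebrum under any alternative that was run. Without GC_KO mouse 12 the log2 fold change from counts was -0.15 and the adjusted p 0.628. In flight the 5 FL_KO mice had 570, 530, 556, 522 and 583 TPM beside 574 to 642 TPM in FL_WT, which overlapped, and the log2 fold change was -0.10 (-0.27 to 0.07).

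Mog, the outer surface protein, had the lowest unadjusted p-value of the comparison of genotypes in flight. In FL_WT it ran from 56.8 through 64.4 to 67.3 TPM, and the FL_KO mice had 59.9, 59.6, 56.95, 47.7 and 47.8 TPM, so 3 of 5 lay within the FL_WT range and 2 below it. The log2 fold change was -0.23 (-0.42 to -0.04) with an unadjusted p of 0.0215 and an adjusted p of 0.819 by edgeR's quasi-likelihood test with Benjamini-Hochberg adjustment. On the ground Mog ran from 46 through 61.1 to 68.98 TPM in GC_WT and from 44.99 through 56.1 to 68.8 TPM in GC_KO, which overlapped almost entirely, with a log2 fold change of -0.16 (-0.34 to 0.02). The interaction term of Mog was -0.07 (-0.33 to 0.20), so the genotype difference was not shown to differ between flight and ground.

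Cldn11 and Mbp had TPM ranges that did not overlap between FL_KO and FL_WT. Cldn11 ran from 156.4 through 163.9 to 172.5 TPM in FL_WT, and the FL_KO mice had 155.3, 148.7, 155.2, 137.2 and 141.8 TPM. All 5 lay below the lowest FL_WT mouse, the highest of them by very little. Its log2 fold change was -0.12 (-0.27 to 0.02, unadjusted p = 0.0929). The highest FL_KO value of Mbp, 3560 TPM, was likewise just below the lowest FL_WT value, 3577 TPM, and the log2 fold change of Mbp was -0.10 (-0.23 to 0.02, unadjusted p = 0.0913). These small gaps are a description of the TPM of the libraries at hand. The counts, not scaled for depth, overlapped for both genes. Mbp had 45720 to 49280 counts in FL_KO and 46140 to 53690 in FL_WT, and Cldn11 1622 to 1904 and 1760 to 2037.

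Cnp, Mag, Mal, Myrf and Opalin had overlapping ranges in both genotype comparisons. Cnp averaged 250 ± 11.3, 251 ± 10.8, 245 ± 27.4 and 243 ± 11.7 TPM in GC_WT, FL_WT, GC_KO and FL_KO (SD, n = 6, 6, 6 and 5). In the same order Mag averaged 175.1 ± 11.3, 185.1 ± 7.37, 174.2 ± 19.9 and 174.8 ± 7.08 TPM. Myrf, the transcription factor of the set, averaged 36.5 ± 3.62, 35.6 ± 5.38, 35.8 ± 5.43 and 35.6 ± 4.28 TPM. Opalin averaged 13.3 ± 2.65, 12.5 ± 2.27, 12.5 ± 1.87 and 11.5 ± 1.77 TPM. Mal averaged 209 ± 23.1 TPM in GC_KO and 198 ± 8.62 TPM in FL_KO (SD, n = 6 and 5). The ranges of these 5 genes overlapped in each of the 4 comparisons.

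In GC_KO against GC_WT 0 of 9 genes passed edgeR's test, where 0.836% of all genes passed, and in FL_KO against FL_WT 0 of 9, where 0.531% passed. DESeq2 called 0 in both, and at an unadjusted p under 0.05 there was 1 gene in each (Mobp, then Mog), beside 9.27% and 5.16% of all genes. TPM ranges failed to overlap for 1 of 9 genes on the ground, beside 0.873% of all genes, and for 2 of 9 in flight, beside 1.31%. In each genotype comparison 8 of 9 log2 fold changes were below 0, with medians of -0.06 and -0.10, where the median of all genes lay within 0.01 of 0. Most of the 9 genes, Myrf and Opalin less so, move together among mice, as described below, so the signs are not independent. Each p-value sets a group difference against the spread between mice within groups, estimated over all 4 groups. In a bulk sample fewer oligodendrocytes and less RNA per oligodendrocyte cannot be told apart.

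One cerebrum stood apart in these genes. GC_KO mouse 12 was below its group mean in all 9, by 0.22 on average on the log2 scale, the lowest average of 23 mice, and GC_KO mouse 1 was the highest at 0.14 with 8 of 9 above its group mean. Mouse 12 had 3089 TPM of Mbp, 453 of Mobp, 203 of Cnp, 170.5 of Mal, 145.3 of Mag, 127.4 of Cldn11 and 44.99 of Mog, each the lowest of 23 mice, while its Myrf (35.2 TPM) and Opalin (11.4 TPM) lay inside their group ranges. Its 14452015 counts tested and its normalization factor of 0.990 lay within the range of the other libraries. The comparisons above were also run without it, and 0 of 9 genes passed in each of them. This mouse was singled out after its values were seen.

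On the TPM scale the more abundant members varied little among mice. The within-group SD of log2(TPM + 1) was 0.07 for Mbp, a value with only 5.3% of the tested genes below it. Cnp (0.10), Mal (0.10), Mag (0.11), Mobp (0.11) and Cldn11 (0.11) lay between the percentiles 17.1 and 21.3. Mog (0.18, percentile 60), Myrf (0.18, percentile 63.9) and Opalin (0.24, percentile 80.8) varied more. The median over all tested genes was 0.16. On counts, edgeR's biological coefficient of variation allows for counting error. There Myrf was at 0.07 (percentile 26.99), near Mbp at 0.07 (percentile 30.04), and Opalin stayed highest at 0.16 (percentile 82.5). Mag, Mal, Cnp and Cldn11 lay between the percentiles 30.25 and 39.64. Mobp at 0.10 (percentile 53.84) and Mog at 0.10 (percentile 57.83) were above the middle of the tested genes.

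The values of most structural myelin genes rose and fell together from mouse to mouse, and those of Myrf and Opalin followed them less. With group means subtracted, 36 pairs of the 9 genes had Pearson r between -0.437 and 0.87 over 23 mice, with a median of 0.502, and 18 pairs were above 0.5. The highest were Cnp with Cldn11 (0.87), Mag with Cnp (0.844), Mag with Mog (0.834) and Mobp with Mal (0.806). The lowest, -0.437, was Cldn11 with Myrf. All genes of a pair share the library and its scaling. Without GC_KO mouse 12 the median was 0.241 and 9 pairs were above 0.5, with a range from -0.565 to 0.798.

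**Figure D3:**
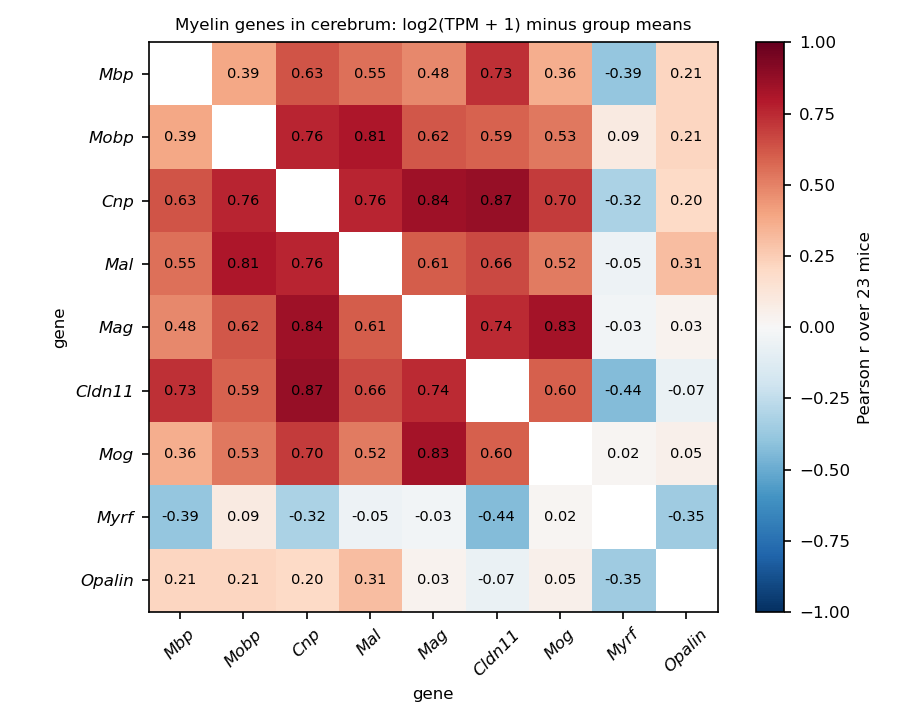
Pearson r between each pair of the 9 myelin genes over 23 cerebra, of log2(TPM + 1) minus its group mean; both axes list the genes and the colour scale runs from -1 (blue) to 1 (red). The block from Mobp to Mog is red throughout, up to 0.87 for Cnp with Cldn11, while Myrf and Opalin are pale or blue.

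Against Mbp, 2 of the 8 other genes passed a two-sided permutation test within groups (100000 permutations, Benjamini-Hochberg adjustment over 8). Cldn11 had r = 0.732 (permutation p = 0.0012, adjusted 0.0093) and rho = 0.642 (permutation p = 0.0047, adjusted 0.038), and r was 0.539 without the 2 mice farthest from the median of Mbp. Cnp had r = 0.631 (permutation p = 0.012, adjusted 0.047) and rho = 0.512 (permutation p = 0.029, adjusted 0.078), and r fell to 0.414 without those 2 mice. Mal had r = 0.552 (permutation p = 0.044, adjusted 0.12) and rho = 0.324 (permutation p = 0.18, adjusted 0.25), and r was 0.221 without the 2 mice, so on the TPM scale this relation rests on them. On log2 CPM with TMM factors Mal had r = 0.653 (permutation p = 0.0061, adjusted 0.016), and r = 0.618 without the 2 mice farthest from the median. Myrf did not pass, with r = -0.386 (permutation p = 0.11, adjusted 0.17) and rho = -0.535 (permutation p = 0.017, adjusted 0.069), and r was -0.237 (permutation p = 0.3, adjusted 0.3) on log2 CPM. Without GC_KO mouse 12, 0 of 8 genes passed, and Cldn11 had r = 0.554 and Myrf r = -0.515, each with an adjusted permutation p of 0.076.

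Mbp was also set against 15 lists of genes, 4 of them of the oligodendrocyte lineage and the others of other cells and of brain regions, and 0 of 15 passed the same test. Of the 4, the 20 other myelin protein genes had r = 0.421 (permutation p = 0.1, adjusted 0.45), and r = 0.734 (permutation p = 0.00039, adjusted 0.0058) on log2 CPM. The lowest p-value was for choroid plexus, with r = -0.445 (permutation p = 0.047, adjusted 0.45) and rho = -0.529 (permutation p = 0.02, adjusted 0.17). Astrocytes and neurons had r = -0.366 and -0.398, but -0.2 and 0.267 on log2 CPM, so the sign for neurons depended on the scale. Without GC_KO mouse 12 choroid plexus passed, with r = -0.696 (permutation p = 0.0021, adjusted 0.031). The summed level of its 6 markers ran from 827 to 1645 TPM over the 23 cerebra, and its part in the values of Mbp was not tested.

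Among the 10 genes whose values over the 23 cerebra were most like the mean of the 9, out of 11703 genes with a mean of at least 5 TPM, were Trf (r = 0.801), Il33 (0.796), Arrdc3 (0.768), Arsg (0.757), Smco3 (0.732), Gpsm1 (0.731), Arl4d (0.724), Pla2g16 (0.719) and Mt2 (0.716). Trf encodes transferrin, which oligodendrocytes make, and Mt2 a metallothionein. Without GC_KO mouse 12 the values were 0.674 for Trf, 0.667 for Il33, 0.616 for Arrdc3, 0.631 for Arsg and 0.601 for Smco3. They were 0.657 for Gpsm1, 0.671 for Arl4d, 0.498 for Pla2g16 and 0.719 for Mt2. Over the 23 cerebra the median r with the mean of the 9 was 0.059 for all ranked genes. It was 0.125 for the 20 other myelin protein genes and 0.075 for 7 genes of myelin lipid synthesis. For 4 genes of peripheral myelin it was higher, at 0.579 (0.12 to 0.68). For 8 precursor genes it was 0.107, and for 9 lineage transcription factors -0.147.

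The rest of the oligodendrocyte program held no gene past the threshold in cerebrum. None of 20 other myelin protein genes, 7 genes of myelin lipid synthesis, 10 lineage transcription factors, 10 precursor genes and 6 of 10 peripheral myelin genes that could be tested passed edgeR's test in any of the 4 comparisons. In FL_WT against GC_WT and FL_KO against GC_KO, 2 and 0 of 20 myelin protein genes had an unadjusted p under 0.05. In GC_KO against GC_WT and FL_KO against FL_WT, 2 and 1 did. The shares of all genes in these 4 comparisons were 3.35%, 5.52%, 9.27% and 5.16%. The 20 genes had median log2 fold changes of 0.01, -0.01, -0.04 and -0.02. Among the most abundant of them were Plekhb1 (467 TPM), Enpp2 (356 TPM) and Tppp (257 TPM). Trf had the lowest p, at a log2 fold change of 0.24 in FL_WT against GC_WT (an unadjusted p of 0.00119 and an adjusted p of 0.887 by edgeR with Benjamini-Hochberg adjustment).

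Of the lipid enzymes, the most abundant were Cers2 (41.4 TPM), Fa2h (39.1 TPM), Ugt8a (34.3 TPM) and Elovl1 (22.3 TPM), which make the sphingolipids and galactolipids of the sheath. All 7 were below 0 in GC_KO against GC_WT, with a median of -0.06, and 6 of 7 were above 0 in FL_KO against GC_KO, with a median of 0.04. Of all genes 51.2% and 49.3% were above 0 in these comparisons. Ugt8a, the galactosyltransferase of galactocerebroside synthesis, had -0.27 (an unadjusted p of 0.00384 and an adjusted p of 0.186 by edgeR with Benjamini-Hochberg adjustment) in the first of these.

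The most abundant lineage factors were Olig1 (92.4 TPM), Sox10 (39.6 TPM), Sox8 (38.3 TPM) and Olig2 (25.03 TPM). Tcf7l2, a Wnt pathway factor that neurons of the thalamus also express, had a log2 fold change of 0.59 in GC_KO against GC_WT (an unadjusted p of 0.00295 and an adjusted p of 0.161 by edgeR with Benjamini-Hochberg adjustment). In that comparison all 6 thalamus markers were above 0, with a median of 0.28, and 2 had an unadjusted p under 0.05; their summed level reached 183.1 TPM in 1 GC_KO mouse beside a median of 94.03 TPM over all cerebra. All 7 striatum markers were below 0, with a median of -0.24, and 5 had an unadjusted p under 0.05, where 9.27% of all genes did. Of all genes 51.2% were above 0 there. The part of dissected brain regions in the values of the myelin genes was not tested.

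Precursor genes were led by Bcas1 (205 TPM), Ptprz1 (67.5 TPM), Gpr17 (26.6 TPM) and Tns3 (21.99 TPM), with medians of -0.03, -0.07, 0.06 and -0.02 in the 4 comparisons in the order above. Genes of Schwann cells, which make myelin outside the brain, were low in cerebrum, led by Drp2 (26.4 TPM), Pmp22 (23.3 TPM), Egr2 (13.7 TPM) and Cdh19 (6.81 TPM). Among markers of other cells, none of the astrocyte, microglia, endothelium, choroid plexus, striatum, cortex and hippocampus, thalamus, skeletal muscle, T cell and kidney tubule lists passed in any of the 4 comparisons. Of the neuron list, Camk2a alone passed, in GC_KO against GC_WT and in FL_KO against FL_WT.

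Across tissues, each of the 9 genes had its highest median in cerebrum. For 6 of them, Mbp, Mag, Mog, Mobp, Opalin and Myrf, every cerebrum lay above every sample of the 8 other tissues. Temporal bone (TpB) came second for 7 genes by its median. Mbp had 931 TPM there (358 to 2065), Cnp 154.7 (87.7 to 294), Cldn11 117.8 (56.6 to 249), Mobp 60.7 (13.9 to 165.8), Mag 38.8 (14.2 to 82.4), Mog 6.27 (1.01 to 18.6) and Opalin 0.37 (0 to 2.70). The ranges of Cnp, Cldn11 and Mal in temporal bone overlapped those in cerebrum. Thymus libraries were made from ribosome-depleted total RNA and all others from poly(A) RNA, so thymus levels are set beside the rest with that difference.

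**Figure D4:**
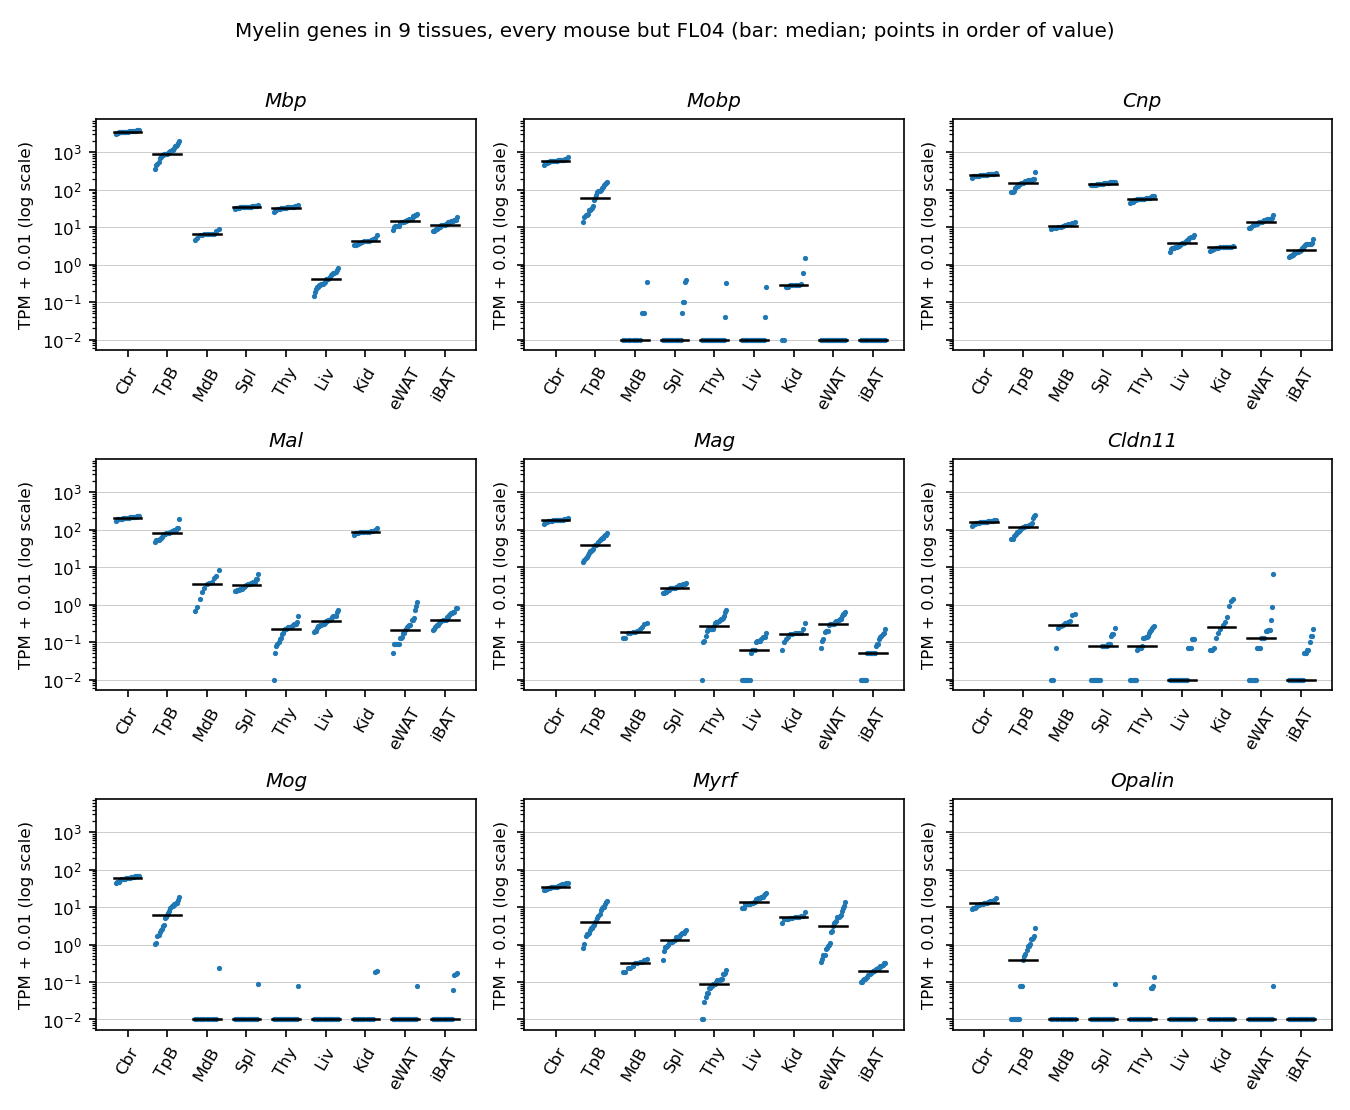
TPM + 0.01 on a log axis of each myelin gene in every sample of 9 tissues without FL04 (n = 23 per tissue, but 11 in MdB and 12 in Kid), with points in order of value and the median as a bar; points at 0.01 are listed at 0. Cerebrum has the highest median in all 9 panels, and Mog, Mobp and Opalin are at or near 0 outside cerebrum and temporal bone.

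Outside the brain and temporal bone the genes divided. Mog, Opalin and Mobp had a median of 0 in at least 6 of the 7 other tissues, with no sample above 1.5 TPM. Cnp was expressed in spleen (147.4 TPM, at most 161.1) at a level that overlapped temporal bone, and in thymus (58.1 TPM). Mal, which is also a protein of the apical membrane of renal epithelia, had 86.6 TPM (71.1 to 108.4) in kidney, second to cerebrum and overlapping temporal bone at 83.1 TPM (45.8 to 195). Myrf was second in liver at 13.6 TPM (9.26 to 23.4), followed by kidney at 5.28 TPM, temporal bone at 3.99 TPM (0.80 to 14.1) and epididymal white adipose tissue (eWAT) at 3.05 TPM (0.34 to 13.9), and these last 3 overlapped. Mbp, whose gene also gives the Golli transcripts of blood cells, had 34.6 TPM in spleen, 33.4 TPM in thymus, 14.8 TPM in eWAT, 11.7 TPM in interscapular brown adipose tissue (iBAT), 6.48 TPM in mandible bone (MdB), 4.29 TPM in kidney and 0.40 TPM in liver. Spleen and thymus overlapped, as did eWAT and iBAT. Gene-level counts do not separate the transcripts of one gene.

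Temporal bone libraries differed widely in all of these genes, in each group. Mbp ran from 464 through 915 to 1758 TPM in GC_WT and from 358 through 957 to 2065 TPM in GC_KO. The pairs of the 9 genes had r between -0.061 and 0.964 over 23 libraries, with a median of 0.764, and among the 5 genes most like their mean were Bcas1 (0.973), Kcnj10, Clec2l and Hcn2 (0.969 each), of 13119 ranked. The median r of all ranked genes with that mean was 0.528, so a value near 0.5 is common in these libraries. Against Mbp, the means of the other lists ran from 0.80 (6 striatum genes) and 0.782 (20 other myelin protein genes) through 0.552 (9 astrocyte genes), 0.508 (10 neuron genes), 0.499 (10 Schwann cell genes), 0.142 (6 thalamus genes) and -0.031 (9 microglia genes) to -0.654 (10 skeletal muscle genes), while the summed level of the muscle genes ran from 402 to 30010 TPM and that of the neuron genes from 702 to 4238 TPM. The summed level of the 10 Schwann cell genes ran from 760 to 4588 TPM in temporal bone, beside 54.98 to 91.92 TPM in cerebrum. Their part in the temporal bone levels of the 9 genes was not tested. How much nervous tissue or muscle a piece of temporal bone held was not measured. Libraries came in a pair of number ranges, and Mbp had a median of 878 TPM in the 11 libraries of the lower range and 971 TPM in the 12 of the higher range, while Opalin had 0.07 and 0.855 TPM.

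**Figure D5:**
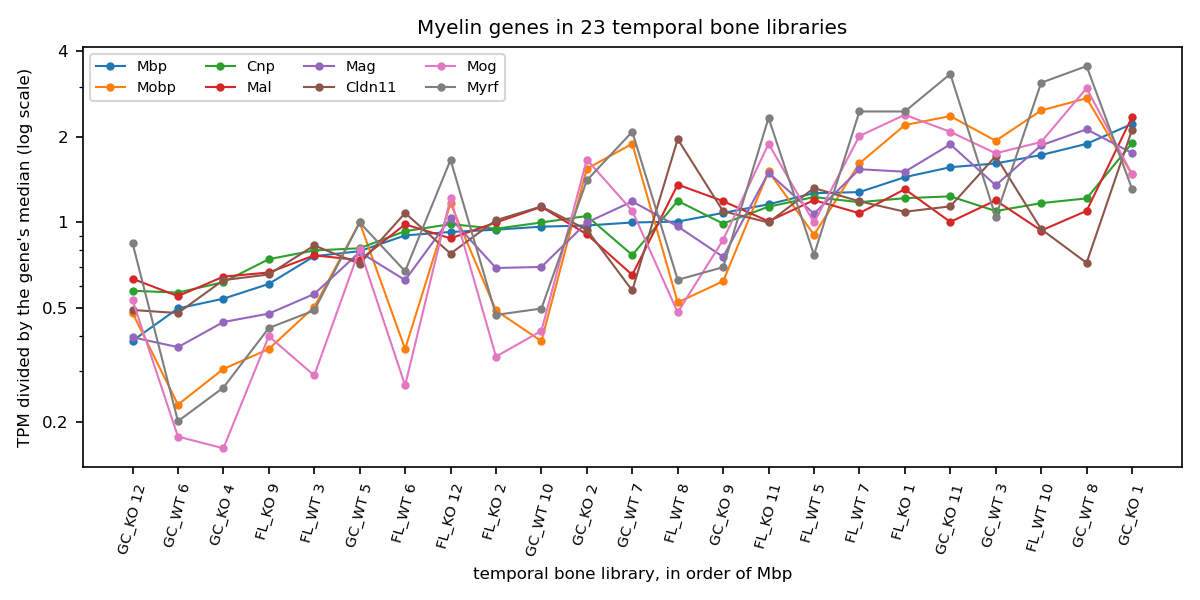
TPM of 8 myelin genes (Opalin, listed at 0 in 8 libraries, is left out) divided by the gene's median, on a log axis, in 23 temporal bone libraries ordered by Mbp. Mbp runs from 358 TPM at the left to 2065 TPM at the right, both in the GC_KO group, and most of the other lines climb with it, with Mog and Myrf covering the widest range.

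No myelin gene passed a test in temporal bone. All 9 were tested, and 0 passed in FL_WT against GC_WT (0% of 18184 genes passed), FL_KO against GC_KO (0%) and GC_KO against GC_WT (0.198%) by edgeR. At an unadjusted p under 0.05 there were 0 of 9 in each, beside 3.71%, 2.67% and 2.9% of all genes. With the library range as a block, or within each range, the count of genes that passed was also 0.

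In mandible bone 4 of the 9 genes could be tested and 0 passed in FL_WT against GC_WT (0% of 16361 genes), FL_KO against GC_KO (0%) and GC_KO against GC_WT (0.244%). Mal came nearest. Its level was 8.36, 2.16 and 2.80 TPM in GC_WT and 0.86, 1.44 and 0.67 TPM in FL_WT. It was 3.62, 5.71 and 3.83 TPM in GC_KO and 5.15 and 4.01 TPM in FL_KO. The 3 FL_WT mice were the lowest of 11. The log2 fold change for flight in WT was -2.35 (-3.50 to -1.20) with an unadjusted p of 0.000824 and an adjusted p of 0.327 by edgeR, and adjusted p-values of 0.00224 by DESeq2 and 0.00664 by edgeR with no filter on low counts. Ranges of FL_WT and GC_WT failed to overlap for 2 of the 4 genes tested (Cnp and Mal), beside 13.9% of all genes, and for 3 mice against 3 that background is high. The interaction term of Mal was 2.39 (0.80 to 3.98) with an unadjusted p of 0.00669 and an adjusted p of 0.932 by edgeR.

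In the 6 soft tissues 5 calls were made, and most were small or rested on few counts. In thymus, where only Mbp and Cnp could be tested, counts normalised by TMM gave lower values in flight. Cnp fell by 0.24 in WT (adjusted p = 0.0057) and by 0.29 in Nrf2-KO (adjusted p = 0.0011), and Mbp fell by 0.14 in WT (adjusted p = 0.0118), in edgeR's test on the log2 scale. The direction of Mbp and the calls of Cnp depend on the scale, since limma on log2(TPM + 1) gave Mbp 0.11 higher in WT (adjusted p = 0.204) and 0.21 higher in Nrf2-KO (adjusted p = 0.0342), and Cnp at -0.02 and -0.03 (adjusted p = 0.898 and 0.816). The median of all genes moved by 0.17 and 0.16 between flight and ground in thymus TPM. Mean Mbp was 32.6 ± 0.972 TPM in GC_WT and 35.5 ± 3.36 in FL_WT (SD, n = 6 each), and mean Cnp was 60.5 ± 4.36 and 59.8 ± 4.02. In thymus 22.8% of all genes passed in WT, 38.2% in Nrf2-KO and 3.81% in GC_KO against GC_WT, so calls there were common.

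In eWAT Cnp rose with flight in WT, from 11.2 ± 1.93 TPM in GC_WT to 15.2 ± 3.24 TPM in FL_WT (SD, n = 6 each). It ran from 9.47 through 10.7 to 14.5 TPM in GC_WT and from 12.2 through 14.5 to 20.8 TPM in FL_WT, which overlapped. The log2 fold change was 0.33 (0.12 to 0.54, adjusted p = 0.0304 by edgeR with Benjamini-Hochberg adjustment), which was lost when only those 2 groups entered the fit (adjusted p = 0.0721). Of the genes tested in eWAT 13.4% passed in this comparison, 7.71% in FL_KO against GC_KO and 2.74% in GC_KO against GC_WT, and 1, 0 and 0 of 3 myelin genes did.

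In iBAT Myrf fell by 0.76 on the log2 scale in FL_KO against GC_KO (adjusted p = 0.0409 by edgeR with Benjamini-Hochberg adjustment). It had 5 to 17 counts in a GC_KO library and 8 to 13 in an FL_KO library, at means of 0.24 and 0.17 TPM, and the ranges overlapped. On log2(TPM + 1) limma called Mbp higher in this comparison, at 0.40 (adjusted p = 0.0301), where edgeR gave -0.05 (adjusted p = 0.823). The median of all genes moved by 0.42 between flight and ground in iBAT TPM of Nrf2-KO mice. The call of Myrf was lost with DESeq2 (adjusted p = 0.0657), with only those 2 groups in the fit (0.0652), with no filter on low counts (0.102) and without FL_KO mouse 1, 2, 11 or 12 (adjusted p = 0.0786, 0.0855, 0.0798 and 0.0693). Of the genes tested in iBAT 19.2% passed in FL_WT against GC_WT, 33.5% in FL_KO against GC_KO and 2.14% in GC_KO against GC_WT, beside 0, 1 and 0 of 4 myelin genes.

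In spleen, liver and kidney none of the myelin genes tested (5, 4 and 5) passed. The share of all genes that passed in FL_WT against GC_WT, FL_KO against GC_KO and GC_KO against GC_WT was 2.26%, 0.668% and 1.13% in spleen, 3.45%, 3.34% and 2.64% in liver and 0.119%, 0.159% and 1.61% in kidney. The lowest unadjusted p in these 3 comparisons was for Myrf in spleen in FL_WT against GC_WT (log2 fold change 0.83, an unadjusted p of 0.00821 and an adjusted p of 0.125 by edgeR, 0.0408 with only those 2 groups in the fit). It ran from 0.68 through 0.94 to 1.58 TPM in GC_WT and from 1.16 through 1.72 to 2.34 TPM in FL_WT, with 24 to 94 counts a library. At an unadjusted p under 0.05 there was also Cldn11 in kidney in FL_KO against GC_KO (log2 fold change 2.29, 1 to 26 counts a library). Of all genes 17% in that spleen comparison and 12.8% in this kidney comparison had such a p-value.

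The genes lie on 8 chromosomes (GRCm38, GENCODE). Mag is at chr7:30899176-30914873 (minus strand), Mog at chr17:37010743-37023398 (minus), Mobp at chr9:120149707-120181484 (plus), Cnp at chr11:100574904-100591729 (plus), Cldn11 at chr3:31149920-31164324 (plus), Mal at chr2:127633226-127656695 (minus), Opalin at chr19:41061710-41077113 (minus), Myrf at chr19:10208272-10240748 (minus) and Mbp at chr18:82475146-82585637 (plus). Cnp shares 8912 bases with Dnajc7 on the opposite strand, and Mobp 2447 bases with Gm38642 on its own strand, where reads of one may have been counted for the other. Whether counting used strand is not given in the sources used here, so reads of Cnp and Dnajc7 cannot be told apart with certainty.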

How the data were processed

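RNA was sequenced from 9 tissues of WT and Nrf2-KO mice in 192 libraries, 184 of them without FL04, prepared with a strand-specific kit from poly(A) RNA or, for thymus, ribosome-depleted total RNA. Per the submitters' processing notes and the study's methods, reads were aligned with STAR 2.6.1 to mm10 and quantified per gene with RSEM 1.3.1. The deposited expected counts (estimated counts, of which 6.01% are not whole) were rounded for testing, and the TPM deposited by the authors, relative to all transcripts of a library, were used for levels. The 192 columns of FPKM were not used.

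Counts were tested per tissue with edgeR 4.0.16 in R 4.3.3: filterByExpr, TMM factors, group means of all 4 groups and the quasi-likelihood F-test, with Benjamini-Hochberg adjustment over all genes tested in a tissue and a threshold of 0.05. TPM were put on the log2(TPM + 1) scale for correlations, permuted within groups. The fits were repeated with limma 3.58.1 on log2(TPM + 1), with DESeq2 1.42.0, with RLE factors, without filterByExpr, with the mouse number as a block, on the groups of 1 contrast alone, with FL04 added, and with mice left out. The test was checked on simulated data. Of 407 pairs of replicates, none agreed within sampling noise (lowest chi-square 2.53 per degree of freedom). Depth limits Opalin and the genes with few counts outside the brain. Intervals cover the spread among mice. Coordinates came from GENCODE vM21, which held 99.9% of the identifiers of the vM20 table.

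The 9 genes and the marker lists were chosen with earlier results of these data known. The rule for named genes was all 9 in every tissue, the 4 genes of each oligodendrocyte or Schwann cell list with the highest mean TPM in cerebrum and those called there, and the 10 genes in cerebrum and 5 in temporal bone most like the mean of the 9. Camk2a, Trf, Tcf7l2 and Ugt8a with their p-values, and GC_KO mouse 12, were named after their values were seen. A gene that these rules also selected is not reported here. Flight and ground mice with the same number are different animals.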

Additional observations from a re-analysis of the deposited data

Results flagged for a closer look

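In groups of 4 to 10 samples of a myelin gene in a tissue, 7 groups, 4.86% of those examined, held 1 sample far from the others, and chance flags about 1 group in 20, which is the share seen here. In iBAT, Cnp was at 3.52 TPM in GC_KO mouse 12 beside 1.73 to 2.35 TPM in the other 5 and at 3.59 TPM in GC_WT mouse 10 beside 1.65 to 2.18 TPM. The same GC_WT mouse 10 had 18.3 TPM of Mbp in iBAT beside 7.92 to 10.4 TPM in the other 5. In liver, Mal was at 0.47 TPM in FL_WT mouse 7 beside 0.18 to 0.27 TPM. In temporal bone, Mal was at 195.0 TPM in GC_KO mouse 1 beside 52.7 to 98.8 TPM, Myrf at 13.3 TPM in GC_KO mouse 11 beside 1.05 to 5.61 TPM and Opalin at 2.70 TPM in the same mouse 11 beside 0 to 0.93 TPM. None of the 7 was in cerebrum.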

How the results depend on the processing

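In cerebrum, the count of myelin genes called was 0 in each comparison under every alternative run, except 1 (Mobp) in GC_KO against GC_WT with limma on log2(TPM + 1). Leaving out single FL_KO mice, or GC_KO mouse 12 (chosen after seeing the data), kept it at 0. In the other 8 tissues FL_WT against GC_WT gave 3 calls, 4 with DESeq2 and with no filter (Mal in mandible bone added), 3 with only the groups of the contrast (Cnp in eWAT lost, Myrf in spleen gained) and 1 with limma. FL_KO against GC_KO gave 2, then 3 with no filter, 2 with limma (Mbp in thymus and in iBAT), 1 with DESeq2, 1 with only the groups of the contrast and 1 to 2 with mice left out (1 without FL_KO mouse 1, 2, 11 or 12). GC_KO against GC_WT gave 0, and 1 (Mal in eWAT) with no filter. With limma Mbp reversed in thymus to 0.11 in FL_WT against GC_WT and 0.21 in FL_KO against GC_KO, and in iBAT to 0.40 in FL_KO against GC_KO, where TPM and TMM scale the libraries differently. Genes following Mbp numbered 2, then 4 on log2 CPM, 5 with no subtraction of group means and 0 without GC_KO mouse 12. Marker lists following Mbp numbered 0, then 2 on log2 CPM (other myelin proteins, r = 0.734, and microglia, r = 0.635) and 1 without GC_KO mouse 12 (choroid plexus), all alternatives of the lists having been added after seeing the data. The cause of these changes was not tested. Of 692 alternatives of 56 single values, 672 kept the side of the threshold, 10 lost the call and 7 gained it. The remaining 3 changed sign where the main or the alternative value was called. A change of sign between values that were not called counts among the 672. In cerebrum 517 of 549 alternative log2 fold changes kept their sign, and the largest move was 0.0845.

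Mouse numbers did not pair flight and ground cerebra: r of deviations over genes ran from -0.254 to 0.41 over 11 pairs, 4 were above 0.1, and 3 mice correlated best with their own number. With the replicate block, 0 myelin genes were called in both flight comparisons of cerebrum (lowest adjusted p 0.781), and 3 and 2 in the other tissues, as without it.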
